A study of Homo sapiens with 6 samples.

Results

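The genes described here form a module of 35 DNA replication and S-phase genes out of 21463 genes in the count tables. They were chosen by name and by known function, with earlier results of these data known. All 35 were found and all 35 passed the filter on low counts, with between 102 and 13206 exon reads per library. They were grouped by role into origin licensing (9 genes), origin firing and fork helicase (7), polymerases, clamp and clamp loader (7), Okazaki fragment maturation (2), nucleotide supply (4), chromatin behind the fork (2) and G1/S control (4).

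Messenger RNA was sequenced from EGFR-mutant non-small cell lung cancer lines of human origin to compare sublines resistant to an EGFR kinase inhibitor with the lines they came from. Resistant HCC827 and resistant PC9, both with the exon 19 deletion labelled E19Del, were selected with gefitinib, a reversible EGFR inhibitor, and resistant H1975, which carries L858R and T790M, with osimertinib, which binds EGFR covalently and was designed to inhibit T790M forms. Each was set against its untreated parental line. Selection ran for 90 days at rising concentrations, and the labels give half-maximal inhibitory concentrations of 4.288 to 12.485 µM for the resistant lines and 0.016 to 0.07 µM for the parental ones. There was 1 library per line and state, 6 in all, so the 3 lines were the only replicates, and no test was possible within a line. The labels do not say whether the resistant cells were clonal or whether drug was present at harvest, and drug, EGFR allele and cell line cannot be told apart, since osimertinib and L858R/T790M occur in H1975 alone.

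DNA replication starts at origins that are licensed in G1, when the origin recognition complex, CDC6 and CDT1 load the ring-shaped MCM2-7 helicase onto DNA. At the start of S phase, CDC45 and the GINS complex join MCM2-7 to form the active helicase, and polymerases held by the PCNA clamp copy the strands while ribonucleotide reductase and thymidylate synthase supply the building blocks. Many of these genes are transcribed by E2F factors once cyclin-CDK activity has inactivated the RB protein, so their messenger RNA is commonly read as a sign of how many cells are in cycle. In bulk RNA, fewer cells in S phase and less RNA of these genes per cell cannot be told apart.

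Many promoters of the module, though not all, held a match to the E2F element. Stretches upstream of the RefSeq start sites (GRCh38.p14) are shown 5′ to 3′ on the gene's strand for 5 genes whose values recur below, with matches to the E2F motif, given below, in capitals. In MCM6 each run of capitals holds 2 matches that overlap, 1 on each strand. MCM7 was taken by the rule for named genes, and the other 4 were chosen after their values were seen. The bases are those of MCM7 at chr7:100101398-100101427 (minus strand), MCM6 at chr2:135876444-135876603 (minus strand), E2F1 at chr20:33686386-33686465 (minus strand), TYMS at chr18:657603-657632 (plus strand) and GINS2 at chr16:85688970-85688999 (minus strand).
MCM7: ccggtcacgtggggggcgacgTTTCGCGCc
MCM6: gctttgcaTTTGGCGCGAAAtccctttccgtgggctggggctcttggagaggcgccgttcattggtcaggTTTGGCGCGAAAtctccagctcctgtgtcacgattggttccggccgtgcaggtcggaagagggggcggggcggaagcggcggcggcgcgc
E2F1: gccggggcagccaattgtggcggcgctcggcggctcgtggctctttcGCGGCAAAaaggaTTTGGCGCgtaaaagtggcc
TYMS: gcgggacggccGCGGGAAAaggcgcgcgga
GINS2: gggctctcgccgtgGCGGGAAAacggcggc

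The motif was searched as TTTCCCGC, TTTCGCGC, TTTGCCGC and TTTGGCGC on both strands, in windows of 300 bases that run from 250 before to 50 after each RefSeq start. Of the 31 members with a window, 19 (61.3%) held a match, against 3.99% of 27305 genes with a window, and by window the shares were 50% of 40 and 3.31% of 35116. Of the other replication and G1/S genes described below, 32.4% of those with a window held an E2F match, and of mitotic genes 8%. The CCAAT box, searched as CCAAT on both strands, was in 64.5% of members with a window and 39.7% of all genes. It was in 52.1% of the other replication and G1/S genes and in 80% of mitotic genes, so it is not particular to the module. The CHR element of genes expressed in G2 and mitosis, searched as TTTGAA on both strands, was in 1 of 31 members (3.23%), in 20 of 25 mitotic genes (80%) and in 18.2% of all genes. Matches of different motifs overlap in 1 member window, that of MCM7, where a CCAAT match that runs past the end of the printed bases shares 1 base with the E2F match. A match is a description of the letters and does not show that a factor binds there. The 19 members with an E2F match had a median log2 ratio, resistant over parental, of −0.29 for HCC827, of −0.31 for PC9 and of 0.16 for H1975. The 12 without a match had medians of −0.53, −0.15 and 0.24 for these lines. Among these 12 are RRM2 and RFC2, which were at least 2-fold lower in resistant HCC827.

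Before the module is described, some facts of the libraries bear on it. They held 21222102 to 29366085 exon reads, and levels are given as CPM, read counts scaled to the library's total, with TMM factors (trimmed mean of M-values). Mitochondrial genes took 6.62% of reads in resistant and 3.32% in parental HCC827, 6.86% and 6.47% in PC9, and 4.67% and 5.56% in H1975. Of 6 epithelial markers, all had reads in every library, and their summed level was 5224 CPM in resistant against 13336 CPM in parental HCC827, 7506 against 8651 CPM in PC9, and 1736 against 2755 CPM in H1975. The defining epithelial gene EPCAM was at 10.6, 726 and 0.46 CPM in resistant HCC827, PC9 and H1975, and at 432, 740.4 and 26.5 CPM in the parental lines. Markers of leukocytes (5 genes) summed to 1.25 to 12.2 CPM, of endothelium (4 genes) to 1.05 to 20.1 CPM and of fibroblasts (5 genes) to 14.8 to 133 CPM. PTPRC and DCN were at 0.416 CPM or less in every library. Other markers of these lists stood higher. COL1A1 ran from 14.5 CPM in parental PC9 to 126 CPM in resistant H1975. CD14 reached 11.6 CPM in resistant H1975, and PECAM1 reached 14.3 CPM in parental PC9. The part of the mitochondrial and epithelial differences in the values below was not tested.

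In resistant HCC827 and resistant PC9 most replication genes stood lower than in the parental line, and in resistant H1975 most stood higher. Together the 35 genes took 0.210% of exon reads in resistant against 0.314% in parental HCC827, 0.285% against 0.334% in PC9, and 0.395% against 0.383% in H1975. As summed CPM this was 2310 in resistant and 3214 in parental HCC827, 2898 and 3411 in PC9, and 3755 and 3444 in H1975. The module thus took its smallest share in resistant HCC827 and its largest in resistant H1975.

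Per gene, the log2 ratio of CPM + 1, resistant over parental, was below 0 for 31 of 35 members in HCC827 and above 0 for 4, where 50.6% of all genes with at least 10 CPM in either library were below 0 and 49.4% above. In PC9 it was below 0 for 31 members (52.4% of all such genes) and above 0 for 4 (47.6%). In H1975 it was above 0 for 25 members (56.4% of all such genes) and below 0 for 10 (43.6%). The median over the members was −0.44 in HCC827 (range −1.37 to 0.52), −0.22 in PC9 (−0.85 to 0.20) and 0.19 in H1975 (−0.66 to 0.54). Medians over all 13541 genes kept were −0.02, 0.00 and 0.03, and over genes with at least 10 CPM they were −0.01, −0.02 and 0.06. At least 2-fold lower levels were found for 3 members in HCC827 (7.60% of all genes), 0 in PC9 (1.70%) and 0 in H1975 (3.19%), and at least 2-fold higher levels for 0 members in each line (10.5%, 2.37% and 1.80% of all genes). Most differences were thus below 2-fold. With 95% exact binomial intervals, which cover counting error only, the ratio lay below 0 for 30 members and above 0 for 2 in HCC827, below for 25 and above for 2 in PC9, and below for 5 and above for 21 in H1975. The share of all genes with such intervals was not computed, so these counts do not set the module apart.

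**Figure D1:**
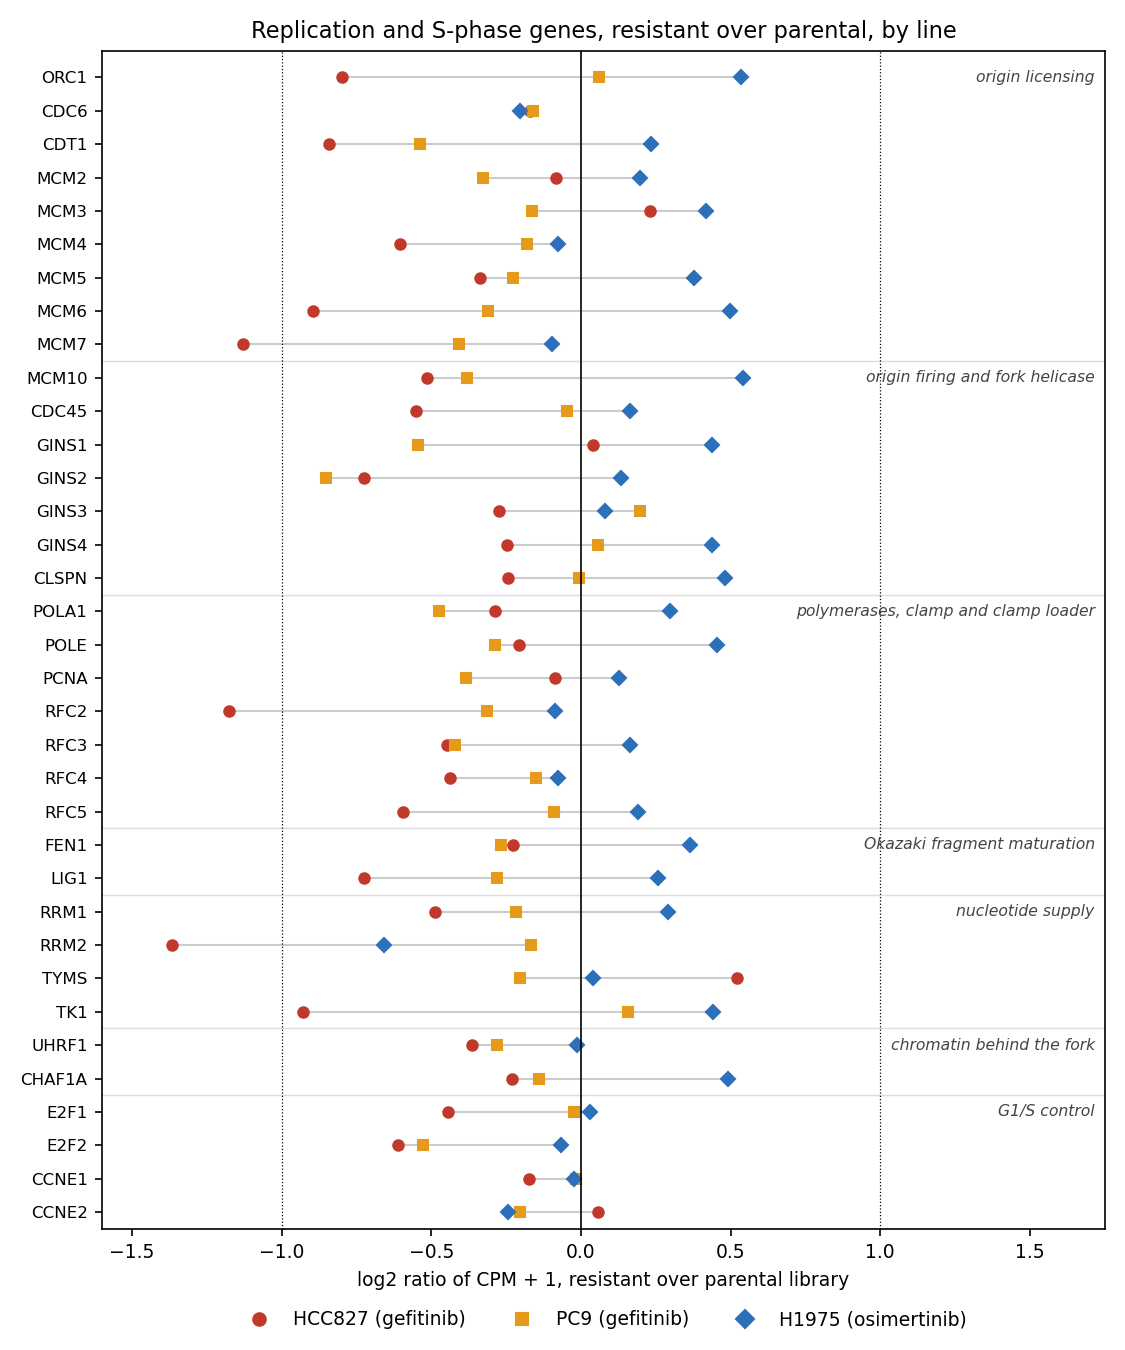
Log2 ratio of TMM-scaled CPM + 1, resistant over parental library, for the 35 replication and S-phase genes (rows, grouped by role) in HCC827, PC9 and H1975 (1 symbol per line, 1 library per state); dotted lines mark a 2-fold difference. HCC827 symbols run from −1.37 to 0.52, the only ones past the left dotted line are those of RRM2, RFC2 and MCM7 in HCC827, and 25 of 35 H1975 symbols lie right of 0.

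Read across lines, 18 members were lower in resistant HCC827 and PC9 and higher in resistant H1975, a pattern that 14.6% of all genes showed. They include genes from all 7 roles, such as CDT1, MCM2, MCM5, MCM6, CDC45, POLA1, POLE, PCNA, FEN1, LIG1, RRM1, CHAF1A and E2F1. Lower in all 3 resistant lines were 9 members (13.3% of all genes): CDC6, MCM4, MCM7, RFC2, RFC4, RRM2, UHRF1, E2F2 and CCNE1. Higher in all 3 resistant lines were 0 members (14.4% of all genes). The remaining 8 were ORC1, GINS3, GINS4 and TK1, which were lower in resistant HCC827 alone, MCM3, GINS1 and TYMS, which were lower in resistant PC9 alone, and CCNE2, which was lower in PC9 and H1975.

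Of the 9 licensing genes, 8 were lower in HCC827 and 8 in PC9, and 6 were higher in H1975, with median log2 ratios of −0.61, −0.23 and 0.23. MCM7, a helicase subunit (chromosome 7, 100092728 to 100101940, hg38), stood at 180.0, 194 and 278 CPM in resistant HCC827, PC9 and H1975, against 395, 258 and 297 CPM in the parental lines. It was lower in each resistant line, and by more than 2-fold in HCC827, where the log2 ratio was −1.13 (95% interval −1.18 to −1.08). Its log2 ratio was −0.41 (−0.47 to −0.35) in PC9 and −0.10 (−0.14 to −0.05) in H1975.

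MCM3, another subunit of the helicase (chromosome 6, 52264009 to 52284881), was higher in 2 of the resistant lines. It stood at 173, 242 and 169.9 CPM in resistant HCC827, PC9 and H1975, against 148, 271 and 127 CPM in the parental lines, with log2 ratios of 0.23, −0.17 and 0.42. MCM6, named as a part of the same complex, stood at 89.8, 94.8 and 193 CPM in resistant HCC827, PC9 and H1975, against 168, 118 and 136 CPM in the parental lines. Its log2 ratios were −0.90, −0.31 and 0.50, so it was lower in resistant HCC827 and PC9 and higher in resistant H1975. CDT1, the loading factor that is destroyed once S phase begins, was the licensing gene of lowest TPM and stood at 39.0, 28.2 and 29.5 CPM in resistant HCC827, PC9 and H1975, against 70.8, 41.5 and 24.96 CPM in the parental lines.

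The levels of the 6 MCM2-7 subunits, which act in equal numbers in the ring, were compared per transcript length as TPM, reads per transcript length scaled to a fixed sum. MCM7 was the highest subunit in parental HCC827, at 264.7 TPM, and stood at 113.8 TPM in resistant HCC827, where MCM3 was highest at 122.0 TPM. The highest over the lowest subunit was 2.64 in resistant against 4.26 in parental HCC827, 2.83 against 2.56 in PC9, and 3.08 against 4.30 in H1975. Subunit levels were thus closer together in the resistant libraries of HCC827 and H1975 and slightly further apart in that of PC9. The sum over the subunits was 488 TPM in resistant and 746 TPM in parental HCC827, 608 and 743 TPM in PC9, and 864 and 829.7 TPM in H1975.

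**Figure D2:**
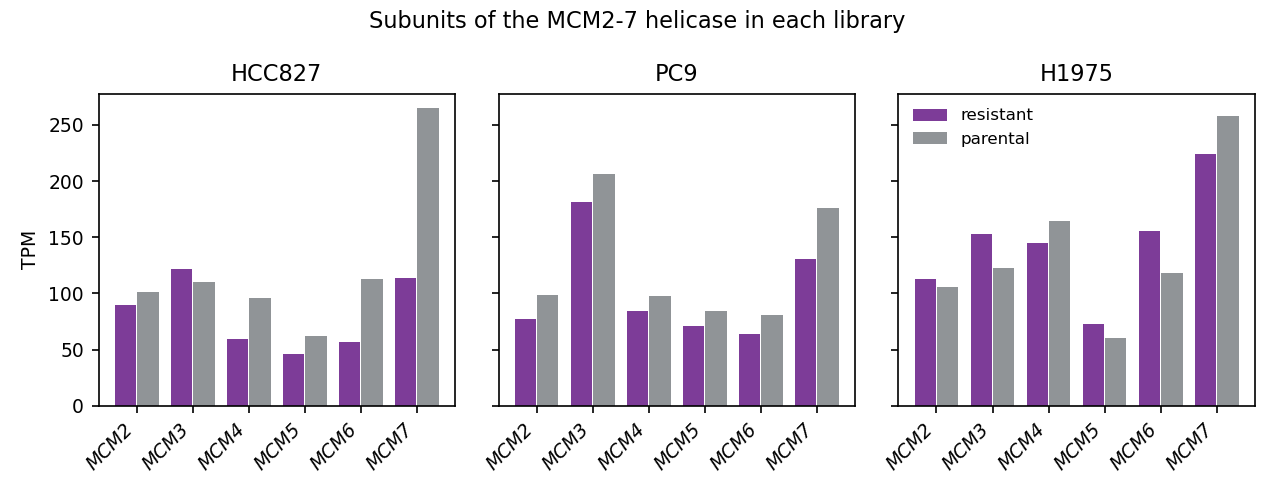
TPM of the MCM2-7 helicase subunits in the resistant (purple) and parental (grey) library of each line, 1 library per bar. MCM7 stands at 113.8 TPM in resistant and 264.7 TPM in parental HCC827, the widest gap in the plot.

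All 7 genes of origin firing and the fork helicase were higher in resistant H1975 (median log2 ratio 0.44), while 6 of 7 were lower in HCC827 (median −0.28) and 5 of 7 in PC9 (median −0.05). GINS4 (chromosome 8, 41529206 to 41545046) and GINS3 (chromosome 16, 58295080 to 58406144) are subunits of the complex that bridges CDC45 and MCM2-7. GINS4 stood at 26.8, 32.9 and 48.2 CPM in resistant HCC827, PC9 and H1975, against 32.0, 31.6 and 35.4 CPM in the parental lines. GINS3 stood at 28.3, 31.6 and 55.4 CPM in resistant HCC827, PC9 and H1975, against 34.5, 27.5 and 52.4 CPM in the parental lines. GINS2, of the same complex, had log2 ratios of −0.73 for HCC827, −0.85 for PC9 and 0.13 for H1975, and no member was lower in PC9. The 4 subunits of this complex thus did not share a direction in PC9, where GINS1 and GINS2 were lower and GINS3 and GINS4 slightly higher.

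CLSPN, encoding claspin, the adaptor of the replication checkpoint at the fork, stood at 10.5, 33.9 and 46.9 CPM in resistant HCC827, PC9 and H1975, against 12.7, 34.0 and 33.3 CPM in the parental lines. MCM10, a helicase activator chosen here after its values were seen, had the highest log2 ratio of any member in H1975, 0.54, with 81.3 CPM in resistant and 55.5 CPM in parental cells.

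The 7 genes of polymerases, clamp and clamp loader were all lower in resistant HCC827 and PC9 (medians −0.44 and −0.32), and 5 of 7 were higher in resistant H1975 (median 0.16). RFC2, a clamp loader subunit (chromosome 7, 74231499 to 74254458), stood at 43.8, 64.2 and 64.5 CPM in resistant HCC827, PC9 and H1975, against 100.3, 80.2 and 68.5 CPM in the parental lines. Its log2 ratio was −1.18 (95% interval −1.29 to −1.10) in HCC827 and −0.09 (−0.18 to 0.01) in H1975. The 3 other loader subunits in the module, RFC3, RFC4 and RFC5, had log2 ratios between −0.60 and −0.44 in HCC827. RFC2 thus stood lowest among the module's loader subunits there. RFC1, the loader subunit outside the module, had a fitted log2 fold change of 0.04 over the lines. In TPM, the highest over the lowest of RFC2 to RFC5 was 1.44 in resistant and 2.40 in parental HCC827.

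PCNA, the sliding clamp (chromosome 20, 5114953 to 5126626), had the highest mean TPM of the module, 507, with 273.9, 297.9 and 891.6 TPM in resistant HCC827, PC9 and H1975 and 308.6, 395.6 and 877 TPM in the parental lines. In CPM it stood at 170.2, 174 and 434 in resistant HCC827, PC9 and H1975, against 181, 227 and 397 in the parental lines. The gap between H1975 and the other lines was far wider than any gap between states. POLA1, the catalytic subunit of the primase-bound polymerase alpha, stood at 35.1, 36.8 and 76.1 CPM in resistant HCC827, PC9 and H1975, against 43.1, 51.5 and 61.7 CPM in the parental lines.

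Both genes of Okazaki fragment maturation were lower in resistant HCC827 and PC9 and higher in resistant H1975. FEN1, the flap endonuclease, stood at 109, 103 and 153 CPM in resistant HCC827, PC9 and H1975, against 127, 125 and 119 CPM in the parental lines. It overlaps FADS2 on the same strand, and only 7.49% to 8.32% of its reads mapped uniquely. With unique reads alone its log2 ratios were −0.12, −0.25 and 0.25. LIG1, the ligase that seals the fragments, stood at 43.9, 96.9 and 42.2 CPM in resistant HCC827, PC9 and H1975, against 73.2, 118 and 35.1 CPM in the parental lines.

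In HCC827, genes of nucleotide supply held both the lowest and the highest log2 ratio of the module. RRM2, the regulated small subunit of ribonucleotide reductase (chromosome 2, 10120698 to 10131419), stood at 66.8, 232 and 178 CPM in resistant HCC827, PC9 and H1975, against 174, 261 and 282 CPM in the parental lines. It was lower in every resistant line, with log2 ratios of −1.37 (95% interval −1.46 to −1.30), −0.17 (−0.22 to −0.11) and −0.66 (−0.71 to −0.61), the lowest of any member in HCC827 and in H1975. Only 9.32% to 14.2% of its reads mapped uniquely, and with these alone the ratios were −1.59, −0.04 and −0.85. A gene model on the same strand, AC007240.1, overlaps it, so its level is uncertain. RRM1, the large subunit, did not share this pattern, with log2 ratios of −0.49, −0.22 and 0.29. In TPM, RRM1 and RRM2 stood at 58.3 and 38.8 in resistant against 86.9 and 107 in parental HCC827, at 81.3 and 144 against 96.1 and 164 in PC9, and at 262 and 132 against 230.0 and 225 in H1975.

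TYMS, thymidylate synthase and the target of fluoropyrimidine drugs (chromosome 18, 657604 to 673578), stood at 149, 158 and 155 CPM in resistant HCC827, PC9 and H1975, against 103, 183 and 151 CPM in the parental lines. Its log2 ratio of 0.52 (95% interval 0.46 to 0.60) in HCC827 was the highest of the module there, and the ratios in PC9 and H1975 were −0.20 and 0.04. With its unique reads alone, 57.8% to 68.3% of the total, the ratios were 0.48, −0.30 and 0.14, and ENOSF1 overlaps it on the opposite strand. The resistant libraries were close to each other, while the parental ones spread more widely. TK1, the thymidine salvage kinase, chosen after its values were seen, stood at 111, 130.4 and 69.7 CPM in resistant HCC827, PC9 and H1975, against 212, 116.95 and 51.0 CPM in the parental lines, so in HCC827 the salvage and the de novo enzyme differed in direction.

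**Figure D3:**
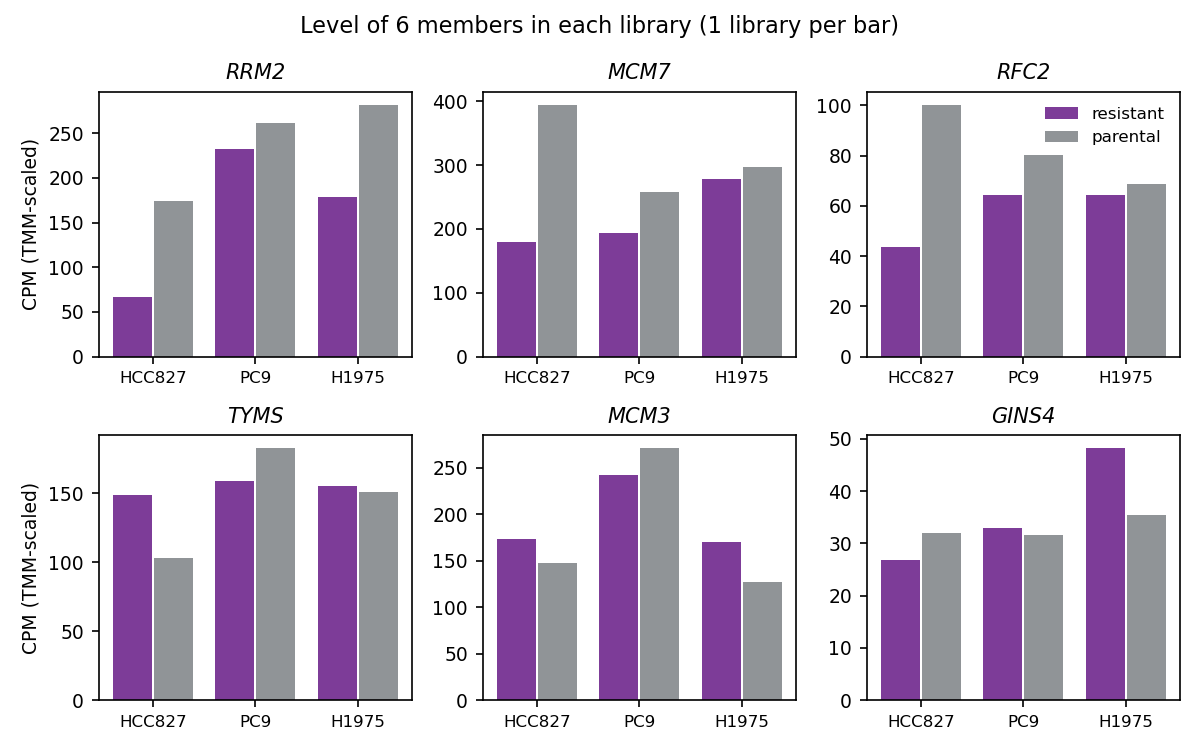
TMM-scaled CPM of the 3 members with the lowest (RRM2, MCM7, RFC2) and the 3 with the highest (TYMS, MCM3, GINS4) mean log2 ratio, in the resistant (purple) and parental (grey) library of each line, 1 library per bar. RRM2, MCM7 and RFC2 are lower in all 3 resistant libraries, and none of the other 3 is higher in all 3.

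Of the genes that act on chromatin behind the fork, CHAF1A, a subunit of the histone chaperone CAF-1, stood at 48.7, 46.7 and 98.6 CPM in resistant HCC827, PC9 and H1975, against 57.3, 51.6 and 69.8 CPM in the parental lines. UHRF1, which brings the maintenance DNA methyltransferase to newly copied DNA, stood at 57.0, 70.7 and 169 CPM in resistant HCC827, PC9 and H1975, against 73.5, 86.1 and 170.4 CPM in the parental lines. Both were lower in resistant HCC827 and PC9, and in H1975 CHAF1A was higher by 0.49 on the log2 scale while UHRF1 differed by −0.01 (−0.12 with its unique reads, 57.2% to 63.6% of the total).

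For the 4 G1/S regulators the median was −0.31 for HCC827, −0.11 for PC9 and −0.05 for H1975, on the log2 scale. E2F1, an activator of many replication genes, stood at 47.3, 57.5 and 58.1 CPM in resistant HCC827, PC9 and H1975, against 64.7, 58.5 and 56.9 CPM in the parental lines. Its promoter, printed above, holds 2 E2F matches. E2F2, a related activator and the member of lowest TPM, stood at 3.83, 10.9 and 13.5 CPM in resistant HCC827, PC9 and H1975, against 6.36, 16.1 and 14.2 CPM in the parental lines. The cyclins CCNE1 and CCNE2, which drive CDK2, had log2 ratios between −0.24 and 0.06 in the 3 lines.

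With the 3 lines as replicates and the line as a block, no gene of the module passed. The quasi-likelihood test of edgeR put 0 of 13541 genes (0%) at a Benjamini-Hochberg adjusted p under 0.05, while 502 (3.71%) had an unadjusted p under 0.05. Of the 35 members 0 were called and 0 had an unadjusted p under 0.05, with adjusted p between 0.903 and 0.998. DESeq2 called 58 genes (0.428%) and limma-voom 0, in each case 0 members. Unadjusted, 1 member had a p under 0.05 in DESeq2, beside 6.82% of all genes, and 1 in limma-voom, beside 5.63%. The fitted log2 fold change was below 0 for 30 of 35 members, against 49.9% of all genes, with a median of −0.14. RRM2 had the lowest, −0.74 ± 0.29 (SE, 3 lines; edgeR unadjusted p = 0.052, adjusted p = 0.903), then MCM7 at −0.55 ± 0.26 and RFC2 at −0.53 ± 0.27. The highest were MCM3 at 0.16 ± 0.20, TYMS at 0.12 ± 0.21 and GINS4 at 0.08 ± 0.22, all smaller than their errors. Without HCC827 the fitted changes were −0.42 for RRM2, −0.26 for MCM7 and −0.21 for RFC2, 20 of 35 members were below 0, and the median was −0.03. Without H1975 the median was −0.30 and MCM3 stood at 0.046, and without PC9 MCM3 stood at 0.31. The fit rested on 2 residual degrees of freedom and a biological coefficient of variation of 38.6%.

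Whether the gefitinib-selected lines differed from the osimertinib-selected line was tested as a difference of changes, gefitinib minus osimertinib, with 1 residual degree of freedom. Here too edgeR called 0 of 13541 genes (0%), while 434 (3.21%) had an unadjusted p under 0.05, and 0 members passed by either measure. DESeq2 called 77 genes (0.569%) and limma-voom 0, in each case 0 members. Unadjusted, DESeq2 had 3.66% and limma-voom 3.65% of all genes under 0.05. The estimate was below 0 for 32 of 35 members, against 51.3% of all genes, with a median of −0.60 beside −0.02 over all genes. MCM6 had the lowest, −1.10 ± 0.48 (SE; edgeR unadjusted p = 0.077, adjusted p = 1), then MCM10 at −1.02 ± 0.46. CDC6, TYMS and CCNE2 were the 3 members above 0. The opposite directions in H1975 and the other lines are thus a description of 6 libraries and did not pass the test for any single gene.

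In HCC827 the 3 lowest ratios of the module lay on the chromosomes with the lowest medians, a comparison added after the values were seen. The lowest ratio in H1975 did not follow its chromosome in this way. In HCC827, chromosomes 2 and 7 had the lowest median log2 ratios over all their genes with at least 10 CPM, −0.53 (666 genes) and −0.43 (488 genes). RRM2 and MCM6 lie on chromosome 2, and MCM7 and RFC2 on chromosome 7, so all 3 members with at least 2-fold lower levels lie on these chromosomes. With the chromosome's median subtracted, RRM2, MCM7 and RFC2 stood at −0.84, −0.69 and −0.74 in HCC827, so none of the 3 was then at least 2-fold lower. CDT1, at −0.84 before subtraction, stood at −1.02 after it, since the median of its chromosome 16 was 0.17. It was then the only member at least 2-fold lower in HCC827, beside 6.45% of all genes. Chromosome 6, which carries MCM3, had the highest median in HCC827, 0.43, and MCM3 stood at −0.20 after subtraction. In H1975, chromosome 7 had the lowest median, −0.35, and MCM7 and RFC2 stood at 0.26 each after subtraction. RRM2, the lowest member in H1975 at −0.66, lies on chromosome 2, whose median there was 0.18. It stood at −0.83 after subtraction. In PC9, chromosome 18 had a median of −0.84 (145 genes), and TYMS, at −0.20 before subtraction, stood at 0.64 after it.

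After subtraction 33 of 35 members were lower in HCC827 (median −0.45), 30 were lower in PC9 (median −0.20) and 26 were higher in H1975 (median 0.15). The subtraction itself sets 50% of all genes below 0 in each line. The pattern of lower in HCC827 and PC9 and higher in H1975 then held for 22 members. The share of all genes with this pattern after subtraction was not computed. The part of position in the ratios of single genes was not tested.

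**Figure D4:**
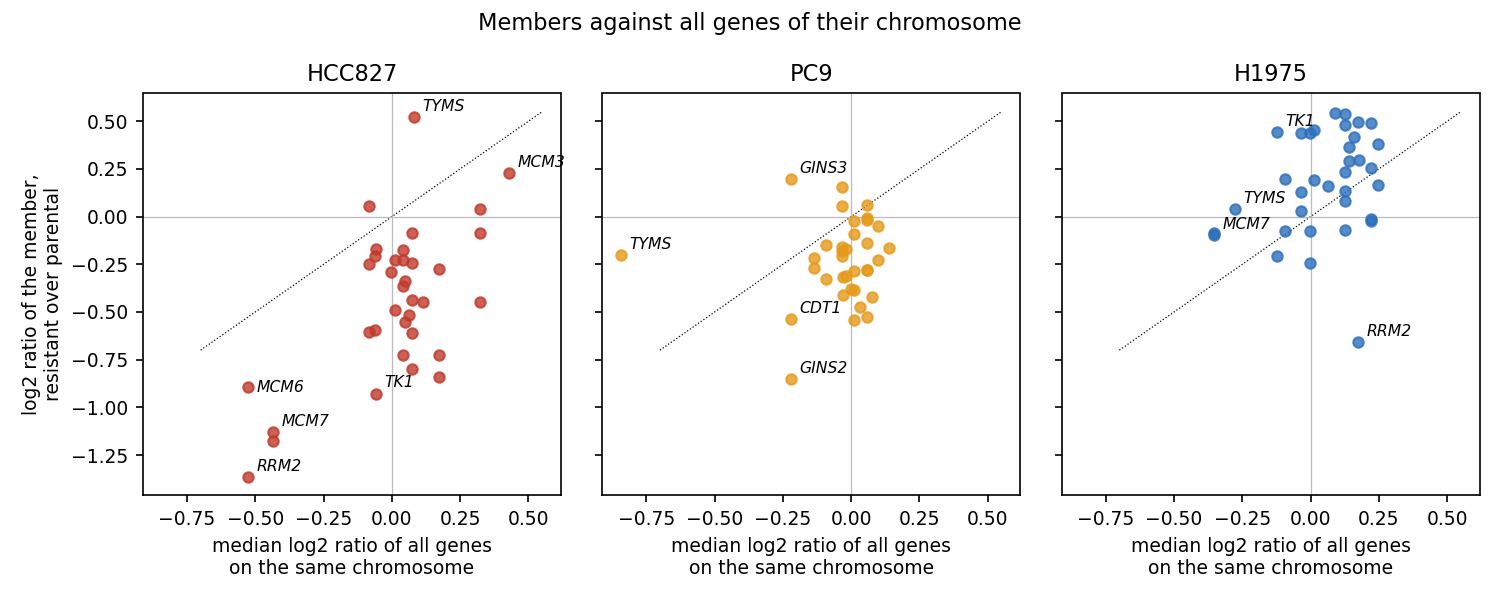
Log2 ratio of each member, resistant over parental, against the median log2 ratio of all genes on its chromosome with at least 10 CPM, in HCC827, PC9 and H1975; the dotted line marks equality. In HCC827, RRM2 and MCM6 (chromosome 2) and MCM7 with RFC2 just below it (chromosome 7) lie at chromosome medians of −0.53 and −0.43, and in PC9 TYMS lies at −0.84.

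Differences between cell lines were larger than differences between states for most members. The range over the 3 parental lines exceeded the largest within-line log2 ratio in 22 of 35 members, with medians of 0.82 and 0.49. The share of all genes was not computed, so this is not shown to be particular to the module. PCNA, RRM1 and MCM10 were examples, all higher in H1975 than in HCC827 in both states.

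Intron reads, which come mostly from transcripts not yet spliced, were counted as a second readout for the 25 members that overlap no other gene. Among those with at least 50 intron reads in a library of the line, 15 of 19 were lower in resistant HCC827 (median log2 ratio −0.49, against −0.15 over all genes), 13 of 18 were lower in resistant PC9 (−0.22, against −0.07) and 22 of 23 were higher in resistant H1975 (0.38, against 0.07). By intron reads, 58.8% of all genes were lower in resistant HCC827, 55.7% in resistant PC9 and 43.5% in resistant H1975. Summed over the 25, there were 2221 intron reads in resistant and 2948 in parental HCC827, 2939 and 3368 in PC9, and 6607 and 3876 in H1975. As a share of all intron reads, without TMM factors, this gave log2 ratios of −0.40 (95% interval −0.48 to −0.32), −0.11 (−0.18 to −0.04) and 0.35 (0.29 to 0.41). Exon reads of the same genes, as summed TMM-scaled CPM, gave −0.45, −0.22 and 0.21. The scalings differ, so the directions can be set side by side but not the sizes. Intron and exon reads come from the same libraries and are not independent samples.

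The module did not stand alone. Of 89 other replication and G1/S genes, 69 were lower in HCC827, 67 in PC9 and 34 in H1975, with medians of −0.42, −0.12 and 0.11, and over the 3 lines edgeR and DESeq2 each called 0 of them, with 6 at an unadjusted edgeR p under 0.05. The difference between the drugs was below 0 for 67 of the 89, with 0 called by edgeR and 1 at an unadjusted p under 0.05. E2F8, a repressor that is itself transcribed in S phase, was the gene of this list at least 2-fold lower in more than 1 line, at 8.25, 27.2 and 11.2 CPM in resistant HCC827, PC9 and H1975, against 20.0, 31.8 and 24.5 CPM in the parental lines. DBF4, the activator of the CDC7 kinase that fires origins, stood at 19.7, 35.3 and 74.4 CPM in resistant HCC827, PC9 and H1975, against 54.7, 46.6 and 108 CPM in the parental lines. SHMT1, which feeds thymidylate synthesis, had log2 ratios of −1.37, −0.39 and −0.51. All 3 genes are among the 21 of 89 that were lower in all 3 resistant lines.

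On the other side of this list, ORC3, a subunit of the origin recognition complex, had log2 ratios of 0.64, 0.26 and 0.11. RB1, the repressor of E2F, stood at 40.5, 40.7 and 24.1 CPM in resistant HCC827, PC9 and H1975, against 28.2, 35.3 and 22.4 CPM in the parental lines, and MCM9, a helicase of DNA repair, had log2 ratios of 0.57, 0.14 and −0.08.

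Of 30 mitotic genes, 29 were lower in HCC827, 29 in PC9 and 10 in H1975, with medians of −0.55, −0.27 and 0.09, and over the 3 lines edgeR and DESeq2 each called 0, with 2 at an unadjusted edgeR p under 0.05. BUB1, a spindle checkpoint kinase, had log2 ratios of −1.56, −0.31 and 0.07, and CCNB1, the mitotic cyclin, of −1.22, −0.13 and −0.16. HMMR and AURKA were lower in all 3 resistant lines, with ratios between −0.90 and −0.25.

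**Figure D5:**
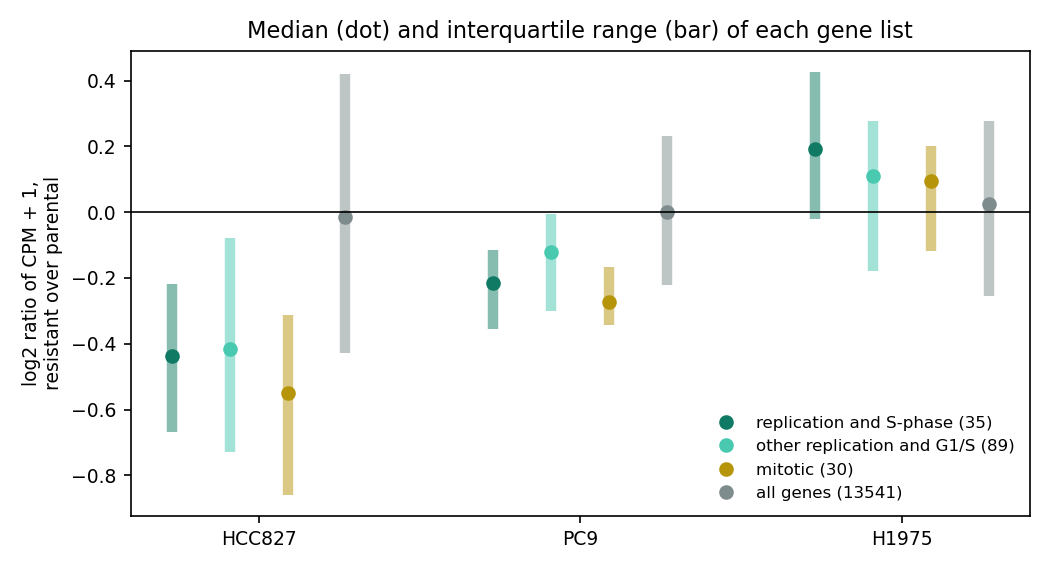
Median (dot) and interquartile range (bar) of the log2 ratio of CPM + 1, resistant over parental, for the 35 replication and S-phase genes, 89 other replication and G1/S genes, 30 mitotic genes and all 13541 genes kept, in each line. The medians of the 3 cell cycle lists lie below 0 in HCC827 and PC9 and above 0 in H1975, and the bars of all genes span 0.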

How the data were processed

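Per the labels, stranded messenger RNA libraries were made with a TruSeq kit. Trimmomatic, Bowtie2 and hg38 are listed in the submitters' processing notes. How reads were counted, and whether by strand, is not given in the sources used here. The authors deposited whole-number counts per gene (total exon, uniquely mapping exon and intron reads, per the file headers) and TPM. Total exon counts were the main values, with 90.8% to 91.7% unique reads per library, and 3 counts correspond to 0.0986 to 0.144 CPM. Of the members, 30 had at least 80% unique reads in every library. TYMS (57.8% to 68.3%), UHRF1 (57.2% to 63.6%) and CCNE2 (70.3% to 79.0%) had fewer, as did FEN1 and RRM2. Reads of the 10 members that overlap another gene may be shared with it.

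The test was edgeR 4.0.16 quasi-likelihood in R 4.3.3 (TMM, filterByExpr with minimum count 10 and minimum total 15), two-sided, adjusted over all 13541 genes at 0.05. The block was the cell line, since each subline came from its parental line. Deviations of paired libraries from the mean of their state correlated at 0.61 to 0.84 across genes, and those of unpaired ones at −0.64 to −0.15. The negative values follow in part from subtracting the mean of each state. A second fit had separate drug terms. DESeq2 1.42.0 and limma-voom 3.58.1 were alternatives. Log2 ratios within a line used 1 CPM as pseudocount, and standard errors came from the fitted change and its F statistic. The labels name no separate cultures beyond the lines.

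The members and lists were chosen with earlier results of these data known. Members with values were those at least 2-fold different in a line, the 3 highest and 3 lowest mean ratios, the highest and lowest TPM of each role, and parts of the named complexes. Of the other lists, the extremes were named. Promoter sequences are from RefSeq (GRCh38.p14), and 31 of 35 members matched. Alternatives were other scalings, filters, pseudocounts, unique reads, TPM, no block and each line left out.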

Additional observations from a re-analysis of the deposited data

How the results depend on the processing

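The direction of the module in each line held under every scaling, pseudocount, unique-read and TPM setting tried, with medians between −0.54 and −0.36 in HCC827, −0.24 and −0.21 in PC9, and 0.09 and 0.19 in H1975. Library size alone moved the median of all genes in HCC827 to −0.10, against −0.02 with TMM. DESeq2 called 58 genes over the lines and 77 between the drugs, where edgeR called 0, and the cause was not tested. Leaving out a line gave 9 to 27 members lower in all remaining lines, the 27 without H1975, and 0 to 4 higher in all, 4 without HCC827 and 3 without PC9, by construction since fewer lines must match. The fitted change of GINS4 ran from −0.087 without H1975 to 0.25, that of RRM2 from −1.04 without PC9 to −0.42 without HCC827, those of MCM7 (−0.76 to −0.26) and RFC2 (−0.74 to −0.21) likewise were nearest 0 without HCC827, and that of TYMS from −0.089 without HCC827 to 0.27. Without H1975, 33 members had a fitted change below 0, and without HCC827 20, against 30 with all lines. With the chromosome median subtracted, chosen after seeing the data, 1 member (CDT1) in place of 3 others was at least 2-fold lower in HCC827, beside 6.45% of all genes. Without the block for the paired lines, edgeR called 0 genes, with 47 at an unadjusted p under 0.05, and 4 members changed direction. With 1 library per line and state, differences of a member between states could not be separated from differences between cultures.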
